A study of Mus musculus with 8 samples.

Results

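The p53 pathway was described here through 32 genes, p53 itself (Trp53), its regulators Mdm2 and Mdm4, and targets with roles in growth arrest, cell death, DNA repair and metabolism. The genes were taken by name, and every array probe annotated to one of them was used if both arrays of some genotype gave it a detection p-value under 0.01. Of the 32 genes, 29 had a probe in the annotation and 25 had a probe that passed, giving 44 of 68 probes, beside 14867 of 45281 probes in the whole data set. Trp53, Bax and Fdxr were not analysed here, and no probe of Mdm4, Btg2, Perp or Ddb2 passed.

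The cells were primary fibroblasts grown from mouse embryos, and their RNA was measured on 1-colour Illumina bead arrays. There were 2 arrays for each of 4 genotypes, which were knockout for Ing1 and Gadd45a together (DKO), for Gadd45a alone (Gadd45a-/-), for Ing1 alone (Ing1-/-) or for neither (WT). All embryos were male, of strain C57BL/6 and at embryonic stage E15.5, and all cultures were harvested confluent at passage 3 with no treatment named. Duplicates were taken per line of fibroblasts, and a genotype may be represented by 1 line only. An effect of the line and one of the genotype cannot be told apart in that case, and the p-values rest on a spread between arrays that may be technical.

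Values are log2 normalised intensities, and differences are log2 differences ± SE from a limma fit to all 8 arrays, with p-values adjusted over all 14867 probes and a threshold of 0.05. Between 14277 and 14778 probes were above background on an array. Replicate arrays correlated across probes with r from 0.988 to 0.994, and arrays of different genotypes with r from 0.980 to 0.990. Probes are not independent replicates. All 11 fibroblast markers examined passed the filter, with a summed level of 16.43 to 16.49 in DKO, 16.51 to 16.58 in Gadd45a-/- and 16.62 to 16.65 in Ing1-/-, against 16.72 on both WT arrays. Their median difference from WT was -0.31, -0.18 and -0.12 in that order. Limma called 1 lower in DKO (Pdgfra), 1 in Gadd45a-/- (Col3a1) and 0 in Ing1-/-, beside 3.8%, 1.33% and 0.417% of all probes in either direction. Not all means ran lower. That of S100a4 was higher than in WT in DKO, those of S100a4, Prrx1, Vim and Twist1 in Gadd45a-/-, and those of Vim and Thy1 in Ing1-/-. The other means were lower. In bulk RNA, fewer cells of a type and less RNA per cell cannot be told apart.

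The targeted genes were examined first. The brighter Gadd45a probe read 11.80 and 11.69 on DKO arrays, 11.80 and 11.83 on Gadd45a-/- arrays and 10.12 and 10.15 on Ing1-/- arrays, against 10.93 and 10.71 on WT arrays. The signal was higher, not lower, on both kinds of array labelled as lacking Gadd45a, and the second Gadd45a probe ran the same way. Limma called the rise against WT in DKO (0.92 ± 0.12) and in Gadd45a-/- (1.00 ± 0.12), the first lost with median scaling or without DKO replicate 1, and the second lost with only the compared genotypes in the fit or without WT replicate 2 or either Gadd45a-/- array. The sources used here do not say where these probes lie relative to the deleted part. The Ing1 probe was below background on all 8 arrays and checks no label. DKO, Gadd45a-/- and Ing1-/- below mean the arrays labelled so, and every direction drawn from them rests on the labels.

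p53 is a transcription factor that cells stabilise under DNA damage and other stress. It switches on Cdkn1a, which encodes the cyclin-dependent kinase inhibitor p21, along with genes of cell death and repair, and it switches on Mdm2, the ubiquitin ligase that marks p53 for destruction and so closes a feedback loop. Cultured fibroblasts are known to engage this pathway as they age in culture, Gadd45a is itself a known p53 target, and ING1 proteins have been described as partners of p53.

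p53 binds DNA as a tetramer, at sites built from copies of a 10-base motif known as the p53 decamer consensus. The 250 bases before the annotated start, from RefSeq on GRCm38.p6, were searched for this motif. Its letters read the same on both strands, so each match counts on both. Of 32851 promoters, 7.13% held at least 1 match and 0.259% held at least 2. Of the 25 genes with a passing probe, 19 had a promoter that was used here, 29 promoters in all. Pmaip1 was left out of this count. Of the 29 promoters, 7 (24.1%) held a match, those of Aen, Ei24, Sesn1, Mdm2, Ccng1, Polk and Cdkn1a. Promoters of Cdkn1a, Mdm2, Ccng1 and Cd80 are shown as examples among the 9 genes with a probe above WT on all 6 knockout arrays. Cd80 held no match and the others shown did. Among the rest of the 9, Polk held a match and Ak1 held none. No match was found for Tnfrsf10b, Phlda3 or Ephx1, and whether each had a promoter that was used is not given here. Aen, Ei24 and Sesn1 held a match but had no such probe. Each printed promoter runs 5′ to 3′ on the gene's strand and ends at the base before the start, with matches in capitals. They lie at chr17:29090729-29090978 on the plus strand (Cdkn1a), chr10:117710759-117711008 on the minus strand (Mdm2), chr11:40755287-40755536 on the minus strand (Ccng1) and chr16:38458683-38458932 on the plus strand (Cd80).
Cdkn1a: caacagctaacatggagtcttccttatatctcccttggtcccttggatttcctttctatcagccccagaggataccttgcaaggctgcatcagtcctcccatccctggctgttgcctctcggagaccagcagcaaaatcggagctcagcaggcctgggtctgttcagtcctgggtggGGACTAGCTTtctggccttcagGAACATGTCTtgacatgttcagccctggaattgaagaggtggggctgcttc
Mdm2: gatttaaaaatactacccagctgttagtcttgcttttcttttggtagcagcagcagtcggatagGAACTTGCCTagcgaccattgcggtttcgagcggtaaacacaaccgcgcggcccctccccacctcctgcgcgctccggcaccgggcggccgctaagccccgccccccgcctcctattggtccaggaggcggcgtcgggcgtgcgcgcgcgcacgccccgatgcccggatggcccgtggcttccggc
Ccng1: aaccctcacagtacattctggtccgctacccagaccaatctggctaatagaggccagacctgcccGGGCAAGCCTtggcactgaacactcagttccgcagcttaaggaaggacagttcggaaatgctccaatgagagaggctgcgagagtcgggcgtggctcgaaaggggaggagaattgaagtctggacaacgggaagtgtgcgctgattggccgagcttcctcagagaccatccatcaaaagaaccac
Cd80: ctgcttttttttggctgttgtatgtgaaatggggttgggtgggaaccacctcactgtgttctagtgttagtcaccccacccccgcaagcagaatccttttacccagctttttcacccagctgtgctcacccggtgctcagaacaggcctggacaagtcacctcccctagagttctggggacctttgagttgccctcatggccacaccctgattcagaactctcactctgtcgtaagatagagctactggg

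Cdkn1a was the only one of the 19 genes with 2 matches in a promoter. They lie 73 to 64 and 51 to 42 bases before the start, with 12 bases between them. A second annotated Cdkn1a promoter held none. The Mdm2 match lies 186 to 177 bases before the start and the Ccng1 match 185 to 176. A match describes the letters of this window and is not a bound site, and nothing follows about p53 binding where there is none.

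Across the pathway, few probes differed from WT past the threshold, and all that did were higher. Over all probes 1.85% were called higher and 1.95% lower in DKO, and 0.928% higher and 0.404% lower in Gadd45a-/-. In DKO the arrest gene Cdkn1a (1 of 3 probes, 1.68-fold) and the kinase gene Ak1 (1.72-fold) rose, and in Gadd45a-/- the surface gene Cd80 rose (1.70-fold). Mdm2, the dimmer Ccng1 probes, Ephx1 and further Cdkn1a probes also read higher on knockout arrays than on WT arrays without passing the threshold. The brightest Ccng1 probe overlapped WT in Gadd45a-/-. Ddit4 and the brightest Bbc3 probe read lower on all 6 knockout arrays, and the brighter Trp53inp1 probe in DKO and Gadd45a-/-, also without passing. None of the 5 repair probes passed the threshold, beside 3.8%, 1.33% and 0.417% of all probes in DKO, Gadd45a-/- and Ing1-/-. Their DKO differences ran from -0.02 to 0.14. Which arrays lie above or below WT is given on the quantile-normalised scale, and with median scaling only Cd80 and Tnfrsf10b still had a probe above WT on all 6 knockout arrays.

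**Figure D1:**
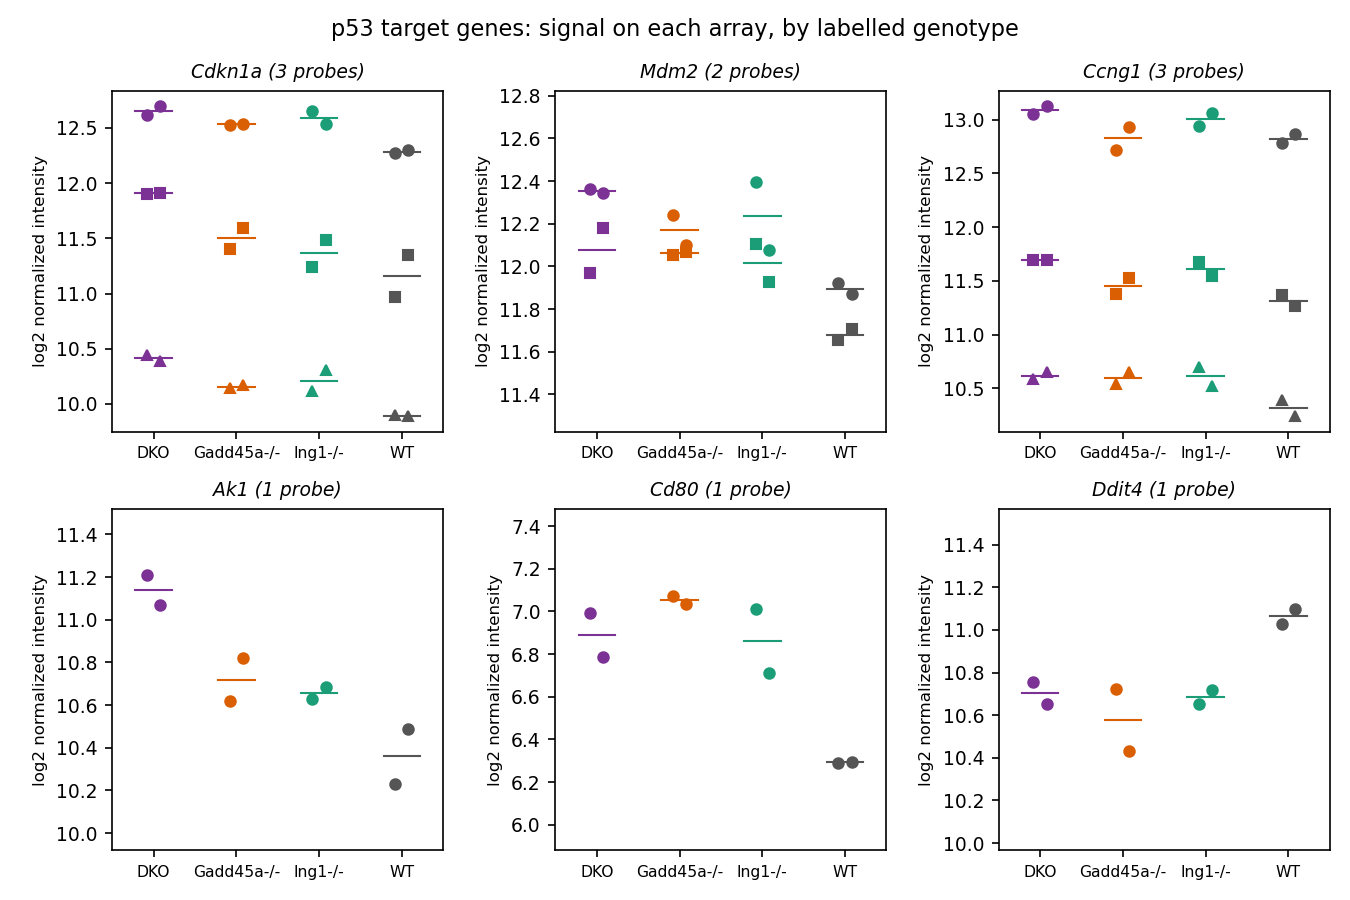
Log2 normalised intensity of leading p53 pathway probes on each array, with genotypes from left to right in the order DKO, Gadd45a-/-, Ing1-/- and WT, 1 point per array, 1 marker shape per probe and a line at each mean. Both Cd80 points of WT (6.29 and 6.30) lie below all 6 knockout points, and both Ddit4 points of WT (11.03 and 11.10) lie above them.

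Mdm2, the negative regulator of p53, had 2 probes. The first read 12.36 and 12.35 in DKO, 12.24 and 12.10 in Gadd45a-/- and 12.40 and 12.08 in Ing1-/-, against 11.92 and 11.87 in WT. The second read 11.97 and 12.18 in DKO, 12.05 and 12.07 in Gadd45a-/- and 12.10 and 11.93 in Ing1-/-, against 11.65 and 11.71 in WT. On both probes every knockout array was above both WT arrays. The differences from WT were 0.46 ± 0.14 and 0.39 ± 0.12 in DKO, 0.27 ± 0.14 and 0.38 ± 0.12 in Gadd45a-/-, and 0.34 ± 0.14 and 0.34 ± 0.12 in Ing1-/-. None passed the threshold, with limma adjusted p = 0.134 for the first probe in DKO.

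Among the arrest genes, Cdkn1a had 3 probes. Probe 2 (ILMN_2846775) read 11.91 and 11.91 in DKO, 11.41 and 11.59 in Gadd45a-/- and 11.24 and 11.48 in Ing1-/-, against 10.97 and 11.35 in WT. The DKO arrays were above all others, while the Ing1-/- and WT arrays overlapped. The difference in DKO was 0.75 ± 0.16 with a 95% interval from 0.38 to 1.12 (limma adjusted p = 0.0459). Probe 1, the brightest, read 12.61 and 12.70 in DKO, 12.53 and 12.54 in Gadd45a-/- and 12.65 and 12.53 in Ing1-/-, against 12.27 and 12.30 in WT. Probe 3 read 10.44 and 10.39 in DKO, 10.15 and 10.17 in Gadd45a-/- and 10.12 and 10.31 in Ing1-/-, against 9.90 and 9.89 in WT. On probes 1 and 3 all 6 knockout arrays were above both WT arrays, with DKO differences of 0.37 ± 0.11 (limma adjusted p = 0.131) and 0.52 ± 0.11 (adjusted p = 0.0527 by limma). The call on probe 2 was kept in 6 of 18 alternatives, with limma adjusted p from 0.00172 to 0.224 over them. It was lost with median scaling, and on leaving out any array but WT replicate 2, with differences from 0.56 to 0.94 over all 18.

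Ccng1, which encodes cyclin G1, a cell-cycle protein and p53 target, read 11.69 and 11.69 on its middle probe in DKO, 11.38 and 11.53 in Gadd45a-/- and 11.68 and 11.55 in Ing1-/-, against 11.37 and 11.26 in WT. All 6 knockout arrays were above WT on this probe, with little room in Gadd45a-/-, and also on the dimmest of its 3 probes. The DKO differences of the 3 probes were 0.27 ± 0.12, 0.38 ± 0.12 and 0.30 ± 0.12, none past the threshold. On the brightest probe the Gadd45a-/- arrays overlapped WT, with a difference of 0.00 ± 0.12, and Ing1-/- differed by 0.18 ± 0.12.

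Ddit4, which encodes REDD1, an inhibitor of mTOR signalling, ran the other way. It read 10.75 and 10.65 in DKO, 10.72 and 10.43 in Gadd45a-/- and 10.65 and 10.72 in Ing1-/-, against 11.03 and 11.10 in WT. All 6 knockout arrays were below both WT arrays, with differences of -0.36 ± 0.13 in DKO, -0.49 ± 0.13 in Gadd45a-/- and -0.38 ± 0.13 in Ing1-/- (limma adjusted p = 0.221, 0.168 and 0.345). Plk2, a polo-like kinase, read 11.88 and 11.93 in DKO, 11.42 and 11.62 in Gadd45a-/- and 11.63 and 11.91 in Ing1-/-, against 11.64 and 11.77 in WT, so that DKO and Gadd45a-/- arrays lay on opposite sides of WT. Sesn1, a sestrin with roles in stress and mTOR signalling, differed from WT by between -0.24 and 0.17 over its 2 probes and the 3 genotypes.

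Of the 22 cell-death probes, from 10 genes, none passed the threshold in any comparison with WT, beside 3.8%, 1.33% and 0.417% of all probes in DKO, Gadd45a-/- and Ing1-/-. At an unadjusted p under 0.05 by limma there were 5, 3 and 1 of the 22 in that order, beside 15.7%, 12.4% and 10.7% of all probes. Their median difference was 0.09 in DKO, 0.04 in Gadd45a-/- and 0.09 in Ing1-/-. Tnfrsf10b, the mouse TRAIL death receptor, had the widest difference. Its second probe read 7.27 and 6.97 in DKO, 6.93 and 6.89 in Gadd45a-/- and 7.16 and 6.98 in Ing1-/-, against 6.17 and 6.60 in WT. Every knockout array was above WT, while the WT arrays themselves stood apart. The differences were 0.73 ± 0.17 in DKO, 0.53 ± 0.17 in Gadd45a-/- and 0.68 ± 0.17 in Ing1-/- (limma adjusted p = 0.0673, 0.259 and 0.197). Its brightest probe differed by 0.29 ± 0.19, 0.06 ± 0.19 and 0.05 ± 0.19 in the same order, so the probes of this gene did not give 1 size.

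Pmaip1, which encodes the BH3-only protein Noxa, read 8.51 and 8.34 in DKO, 7.89 and 8.27 in Gadd45a-/- and 8.20 and 8.23 in Ing1-/-, against 8.09 and 7.73 in WT. The DKO arrays were above all others, with a difference from WT of 0.51 ± 0.17 (limma adjusted p = 0.189), 0.17 ± 0.17 in Gadd45a-/- and 0.30 ± 0.17 in Ing1-/-. Its dimmer probe differed by 0.41 ± 0.25 in DKO, -0.20 ± 0.25 in Gadd45a-/- and -0.13 ± 0.25 in Ing1-/-, so the probes differed in sign in the single knockouts. Bbc3, which encodes the BH3-only protein Puma, went the other way on its brightest probe. It read 9.39 and 9.38 in DKO, 9.50 and 9.22 in Gadd45a-/- and 9.64 and 9.50 in Ing1-/-, against 9.69 and 9.72 in WT. Every knockout array was below WT here, with differences of -0.32 ± 0.13, -0.34 ± 0.13 and -0.14 ± 0.13 and none past the threshold. Its other 2 probes were near background, above it on 6 and 4 arrays. The first of them ran the other way, with differences of 0.10 ± 0.23, 0.39 ± 0.23 and 0.54 ± 0.23, and the second ran lower, by -0.27 ± 0.32 and -0.14 ± 0.32 in DKO and Gadd45a-/- and at least 1.35-fold in Ing1-/-, where it was not above background. None of these passed the threshold.

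Trp53inp1, a p53-induced nuclear protein gene, had 2 probes, and the brighter read 9.57 and 9.64 in DKO, 9.43 and 9.51 in Gadd45a-/- and 9.89 and 9.82 in Ing1-/-, against 9.83 and 9.98 in WT. On this probe DKO and Gadd45a-/- arrays were below both WT arrays and the Ing1-/- arrays overlapped them. The differences were -0.30 ± 0.11, -0.43 ± 0.11 and -0.05 ± 0.11 (limma adjusted p = 0.253, 0.153 and 0.917). On the dimmer probe the WT arrays stood at 7.87 and 8.63 and every genotype overlapped them. Phlda3, an inhibitor of Akt signalling, was higher on all 6 knockout arrays on its brighter probe, with differences of 0.21 ± 0.11, 0.16 ± 0.11 and 0.18 ± 0.11 in DKO, Gadd45a-/- and Ing1-/- that did not pass the threshold. Apaf1 (the apoptosome scaffold), Ei24, Fas (a death receptor), Aen (an apoptosis-linked nuclease) and Zmat3 (an RNA-binding protein) differed from WT by between -0.46 and 0.28, and the lowest value, Apaf1 probe 3 in DKO, came with WT arrays that stood apart at 8.18 and 7.37.

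**Figure D2:**
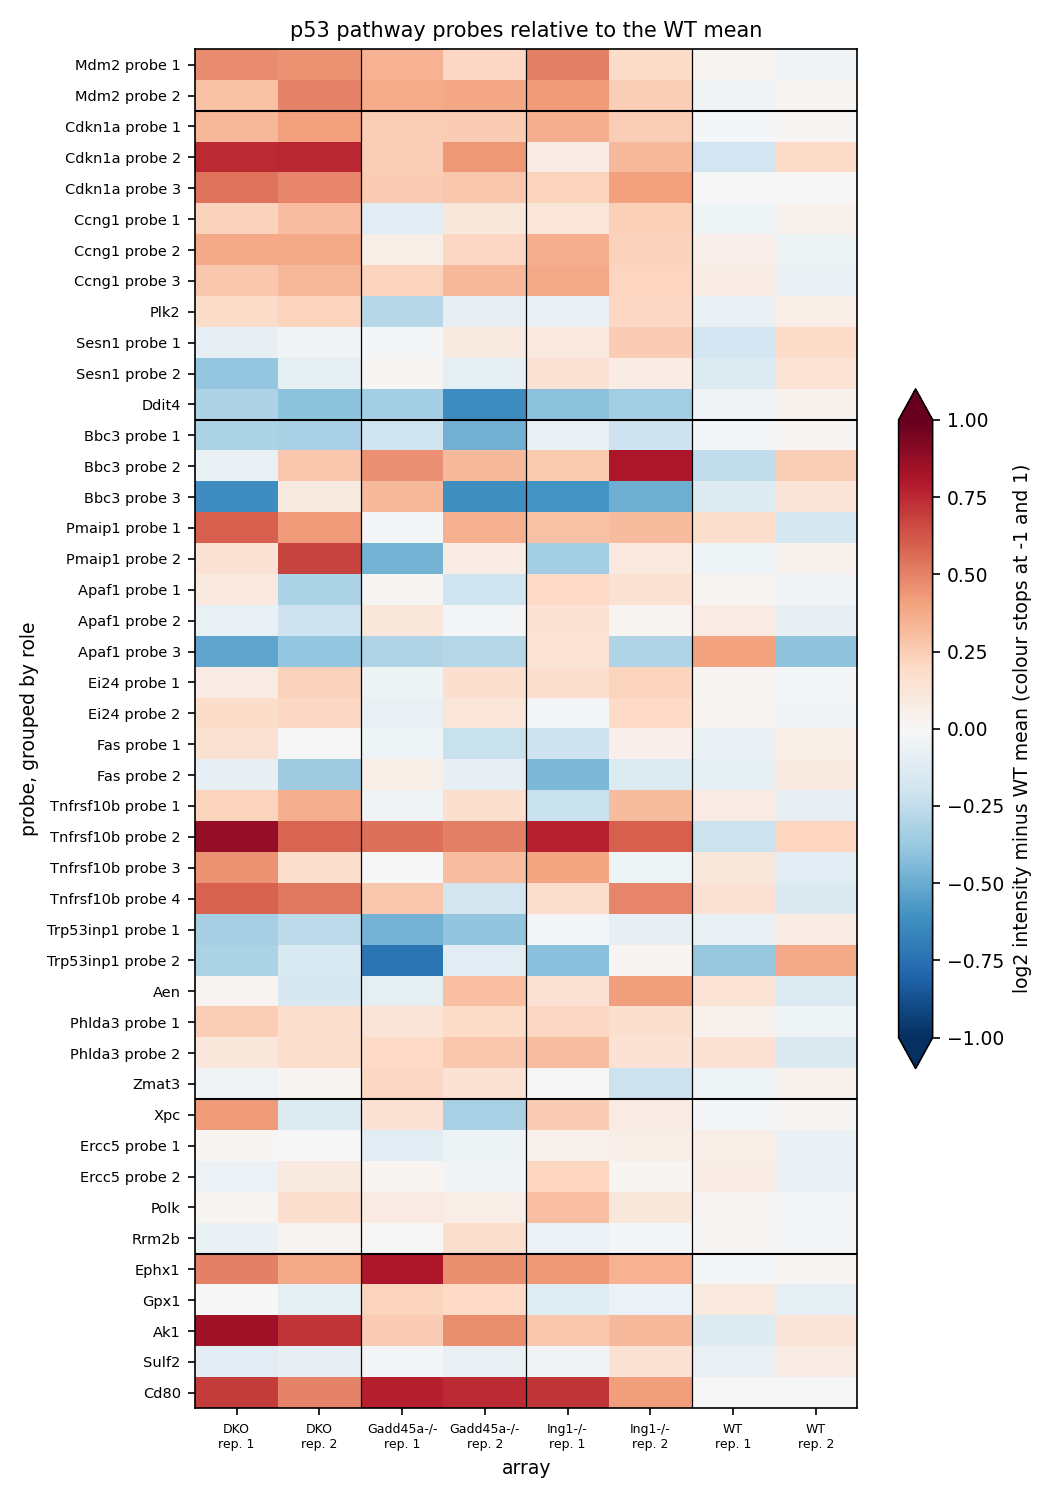
Log2 intensity of each of the 44 probes relative to its mean over the WT arrays, with 1 column per array from DKO on the left to WT on the right and probes grouped by role from regulators at the top. On this quantile-normalised scale the 2 Mdm2 rows are higher on all 6 knockout arrays, which did not hold with median scaling, and the Ddit4 row is lower on all 6.

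No repair or nucleotide-supply gene was called. Xpc (damage recognition), Ercc5 (the excision nuclease XPG), Polk (a translesion polymerase) and Rrm2b (a ribonucleotide reductase subunit) had 5 probes. None passed the threshold against WT by limma, beside 3.8%, 1.33% and 0.417% of all probes in DKO, Gadd45a-/- and Ing1-/-. None had an unadjusted p under 0.05 by limma, beside 15.7%, 12.4% and 10.7% of all probes. Polk read 9.51 and 9.64 in DKO, 9.56 and 9.54 in Gadd45a-/- and 9.78 and 9.59 in Ing1-/-, against 9.49 and 9.46 in WT. No knockout array overlapped WT, with a difference of 0.10 ± 0.12 in DKO, 0.07 ± 0.12 in Gadd45a-/- and 0.21 ± 0.12 in Ing1-/-. Across the 5 probes the DKO differences ran from -0.02 to 0.14, those of Gadd45a-/- from -0.09 to 0.09 and those of Ing1-/- from -0.04 to 0.21. All of their 95% intervals against WT stayed within 1 log2 unit of 0.

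Ak1, adenylate kinase 1, an enzyme of adenine nucleotide balance, read 11.21 and 11.07 in DKO, 10.62 and 10.82 in Gadd45a-/- and 10.63 and 10.68 in Ing1-/-, against 10.23 and 10.49 in WT. The DKO arrays were highest, both single knockouts lay between, and no knockout array overlapped WT. The rise in DKO was 0.78 ± 0.14 with a 95% interval from 0.46 to 1.10 (limma adjusted p = 0.0225), while Gadd45a-/- and Ing1-/- differed by 0.36 ± 0.14 and 0.30 ± 0.14 (limma adjusted p = 0.339 and 0.504). The call held in 12 of 18 alternatives, with limma adjusted p from 0.000554 to 0.164 and differences from 0.60 to 0.91. It was lost with median scaling, with no detection filter, with only the compared genotypes in the fit, and without WT replicate 1, DKO replicate 1 or DKO replicate 2.

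Cd80, a costimulatory ligand of T cells best known from antigen-presenting cells, read 6.99 and 6.79 in DKO, 7.07 and 7.04 in Gadd45a-/- and 7.01 and 6.71 in Ing1-/-, against 6.29 and 6.30 in WT. No knockout array reached down to the WT arrays. The difference was 0.76 ± 0.14 in Gadd45a-/- (95% interval 0.44 to 1.08, limma adjusted p = 0.0481), 0.60 ± 0.14 in DKO (limma adjusted p = 0.061) and 0.57 ± 0.14 in Ing1-/- (limma adjusted p = 0.176). The call in Gadd45a-/- held in 1 of 18 alternatives, the replicate block, and was lost on leaving out any array, with limma adjusted p from 0.049 to 0.223 over all 18. Of 10 macrophage markers 5 passed the filter, and C1qa, Tyrobp, Csf1r and Ptprc had a probe but did not. Their summed level was 8.94 on both DKO arrays, 10.13 to 10.22 in Gadd45a-/- and 9.64 to 9.89 in Ing1-/-, against 8.94 to 9.05 in WT. All 5 rose in Gadd45a-/-, 1 in Ing1-/- and 0 in DKO by limma, beside 1.33%, 0.417% and 3.8% of all probes called in either direction. Their part in the Cd80 values was not tested.

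Ephx1, microsomal epoxide hydrolase, read 11.72 and 11.59 in DKO, 12.03 and 11.68 in Gadd45a-/- and 11.65 and 11.56 in Ing1-/-, against 11.20 and 11.24 in WT. All 6 knockout arrays were above WT, with differences of 0.44 ± 0.14, 0.64 ± 0.14 and 0.39 ± 0.14 (limma adjusted p = 0.164, 0.0958 and 0.367). Gpx1, a glutathione peroxidase, and Sulf2, a heparan sulphate sulfatase, differed from WT by between -0.10 and 0.21.

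**Figure D3:**
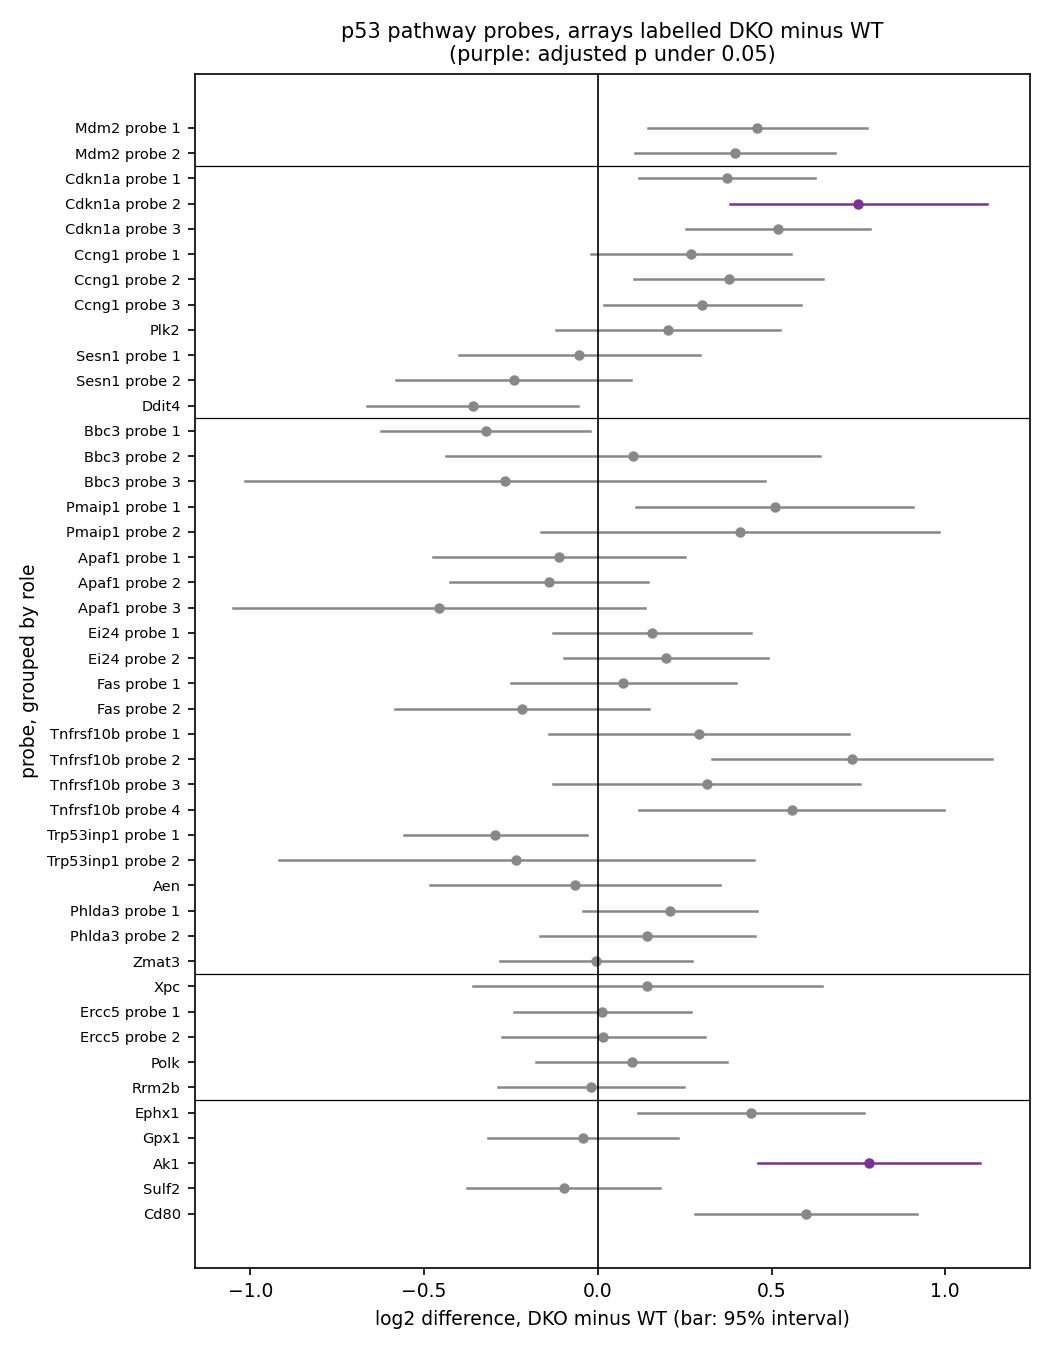
Log2 difference of DKO minus WT with its 95% interval from the limma fit, 1 row per probe, grouped by role. Ak1 (0.78) and Cdkn1a probe 2 (0.75) are coloured as past the adjusted threshold, and the 5 repair probes lie between -0.02 and 0.14.

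Over the 44 probes, 2 passed the threshold in DKO against WT (4.55%), beside 3.8% of all probes. These shares depended on the settings, at 18.2% of member probes beside 5.66% of all probes with a trended and robust prior, 11.4% beside 5.15% with no background correction, and 0% beside 3.28% with median scaling. In Gadd45a-/- 1 passed (2.27%), beside 1.33% of all probes. In Ing1-/- limma called 0, beside 0.417% of all probes. At an unadjusted p under 0.05 by limma there were 16, 8 and 10 of the 44 member probes in DKO, Gadd45a-/- and Ing1-/-. Over all 14867 probes the counts were 2339, 1840 and 1592 (15.7%, 12.4% and 10.7%). The median difference of the members was 0.14, 0.06 and 0.17 in the same order, beside 0.01, 0.00 and 0.01 over all probes. Groups did not overlap for 26 of the 44 probes in DKO (22 higher, 4 lower), 21 in Gadd45a-/- (17 higher, 4 lower) and 26 in Ing1-/- (21 higher, 5 lower). Over all 14867 probes the counts were 6817, 5874 and 5824 (45.9%, 39.5% and 39.2%). The 3 comparisons share the WT arrays and are not independent of each other. The 95% interval stayed within 1 log2 unit of 0 for 39 probes in DKO, 42 in Gadd45a-/- and 41 in Ing1-/-.

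With all 6 knockout arrays set against both WT arrays, 12 of the 44 probes (27.3%), from 9 genes, lay wholly above WT, beside 7.91% of all probes, but with median in place of quantile scaling only 2 did (4.55%, Cd80 and Tnfrsf10b), beside 1.35% of all probes. Those below WT were 2 (4.55%, Ddit4 and Bbc3), beside 6.58% of all probes, and 4 (9.09%) with median scaling, beside 13.7% of all probes. Median scaling set the arrays equal at the median of all 45281 probes, most of which did not pass the detection filter. Over the 14867 probes that passed, the median difference from WT was then -0.16 in DKO, -0.09 in Gadd45a-/- and -0.18 in Ing1-/-. That of the members was -0.02, -0.04 and -0.03. Relative to all probes, the members' median was therefore higher under both scalings, while its sign against 0 depended on the scaling. With median scaling 7 probes changed sign in DKO, 9 in Gadd45a-/- and 12 in Ing1-/-, all with differences of at most 0.16, 0.09 and 0.18 on the quantile scale. The 12 probes were those of Mdm2 (2), Cdkn1a (2), Ccng1 (2), Tnfrsf10b, Phlda3, Polk, Ephx1, Ak1 and Cd80. Several share a gene, so the 12 are not separate observations.

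**Figure D4:**
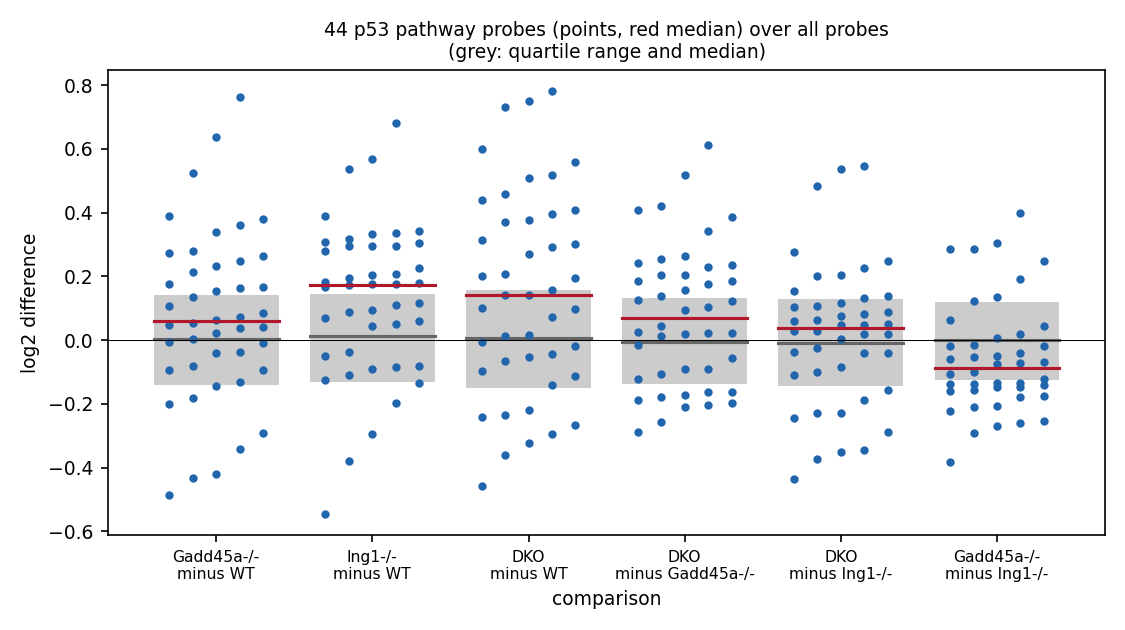
Log2 difference of each of the 44 pathway probes (points) in 6 comparisons between genotypes, with their median as a red line, over a grey box from the lower to the upper quartile of all 14867 probes with their median. Against WT the red lines lie at 0.14 in DKO, 0.06 in Gadd45a-/- and 0.17 in Ing1-/-, and only that of Ing1-/- is above its grey box. Values are on the quantile-normalised scale.

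The knockouts were also compared with each other. In DKO against Gadd45a-/-, DKO against Ing1-/- and Gadd45a-/- against Ing1-/-, limma called 0 of the 44 probes, beside 0.39%, 1.11% and 0.659% of all probes, and 5, 3 and 3 had an unadjusted p under 0.05, beside 10.1%, 11.7% and 8.64% of all probes. Groups did not overlap for 28, 17 and 17 of the 44 probes, beside 43.7%, 44.5% and 36.6% of all probes. The members' medians were 0.07, 0.04 and -0.09. Cdkn1a probe 2 was higher in DKO than in either single knockout without overlap, by 0.41 ± 0.16 against Gadd45a-/- and 0.55 ± 0.16 against Ing1-/- (limma adjusted p = 0.432 and 0.213). Ak1 was higher by 0.42 ± 0.14 and 0.48 ± 0.14 (limma adjusted p = 0.354 and 0.197), and Plk2 by 0.38 ± 0.14 against Gadd45a-/- (limma adjusted p = 0.392). The highest differences of DKO against Gadd45a-/- were on dimmer probes, 0.61 ± 0.25 for Pmaip1 probe 2 and 0.52 ± 0.19 for Tnfrsf10b probe 4 (limma adjusted p = 0.451 and 0.394), both without overlap. The lowest difference of Gadd45a-/- against Ing1-/- was in Trp53inp1 probe 1, at -0.38 ± 0.11 (limma adjusted p = 0.31).

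Whether the effects of the 2 deletions added up was tested by an interaction term, DKO minus both single knockouts plus WT. Limma called 0 of the 44 probes, beside 0.148% of all probes, with 4 of the 44 at an unadjusted p under 0.05, beside 9.36% of all probes. The lowest and highest terms were on dim probes, -0.82 ± 0.33 for Bbc3 probe 2 (limma adjusted p = 0.499) and 0.74 ± 0.35 for Pmaip1 probe 2 (limma adjusted p = 0.571). The term was -0.73 ± 0.19 for Cd80 (limma adjusted p = 0.309) and -0.59 ± 0.20 for Ephx1 (limma adjusted p = 0.453), whose DKO means were below those of Gadd45a-/-. For Ddit4 it was 0.51 ± 0.19 (limma adjusted p = 0.469). For Ak1 and Cdkn1a probe 2 it was 0.12 ± 0.19 and 0.20 ± 0.23, smaller than its error in both. The 95% interval of the term reached beyond 1 log2 unit for 8 of the 44 probes, so a term of that size lay within the interval there.

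Other genes of the pathway were read from lists, with the brightest passing probe for each gene. Of 19 upstream kinases and modifiers of p53, 13 passed the filter and limma called 0 of them in any comparison with WT, beside 3.8%, 1.33% and 0.417% of all probes in DKO, Gadd45a-/- and Ing1-/-. At an unadjusted p under 0.05 by limma there were 2, 1 and 0 of the 13, beside 15.7%, 12.4% and 10.7% of all probes. Of 21 further p53 targets, 12 passed, and 6, 4 and 5 had an unadjusted p under 0.05 by limma in the same order, beside the same shares. In DKO, Gadd45a and Rprm rose and Igfbp3 fell, in Gadd45a-/- Gadd45a rose, and in Ing1-/- Igfbp3 fell. Over all probes 3.8%, 1.33% and 0.417% passed the threshold in DKO, Gadd45a-/- and Ing1-/-. Gadd45a is a targeted gene, and it rose on arrays labelled as lacking it.

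Rprm, which encodes reprimo, a cell-cycle arrest protein, read 7.18 and 7.57 in DKO, 7.24 and 7.05 in Gadd45a-/- and 6.98 and 7.31 in Ing1-/-, against 6.23 and 6.50 in WT. All 6 knockout arrays were above WT, and the DKO difference was 1.00 ± 0.19 (limma adjusted p = 0.0273). It was lost in 5 of 18 alternatives, among them those without WT replicate 1, DKO replicate 1 or DKO replicate 2, with limma adjusted p from 0.0114 to 0.18 over all 18. Igfbp3, which encodes a secreted binding protein of insulin-like growth factors, read 5.90 and 5.81 in DKO, 6.82 and 6.31 in Gadd45a-/- and 5.82 and 6.07 in Ing1-/-, against 7.82 and 7.32 in WT. It was not above background in DKO, where it was at least 3.09-fold lower (limma adjusted p = 0.0063), and was above it on 1 of 2 Ing1-/- arrays, where it differed by -1.62 ± 0.22 (limma adjusted p = 0.031). The DKO call was lost without DKO replicate 1 or DKO replicate 2, and the Ing1-/- call was lost in 10 of 18 alternatives, including without WT replicate 1 and without any 1 knockout array.

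Of the 12 proliferation genes listed, 8 passed and limma called 0 in the comparisons with WT, with medians of -0.07 in DKO, 0.05 in Gadd45a-/- and -0.04 in Ing1-/-. Of 9 epithelial markers 4 passed, and Krt18, Epcam, Cdh1, Krt14 and Krt5 had a probe but did not. Limma called 3 higher in DKO, 2 in Gadd45a-/- and 0 in Ing1-/-, beside 3.8%, 1.33% and 0.417% of all probes called in either direction. Their summed level was 9.05 to 9.06 in DKO, 8.69 to 8.77 in Gadd45a-/- and 8.27 to 8.34 in Ing1-/-, against 7.77 to 8.09 in WT. Krt8 was not called. Its means were lower in DKO (5.96), Gadd45a-/- (6.14) and Ing1-/- (6.16) than in WT (6.38), whose arrays stood apart at 5.90 and 6.86. Of 7 cartilage and bone markers 4 passed, and Bglap, Comp and Matn1 had a probe but did not. In DKO 2 rose (Col2a1, the cartilage collagen, by 2.99 ± 0.13, and Sp7). In Gadd45a-/- 2 rose (Col2a1 by 3.81 ± 0.13, and Acan), and in Ing1-/- 1 rose (Col2a1 by 1.29 ± 0.13). Sox9 was not called, and its means were lower in DKO (10.57), Gadd45a-/- (10.80) and Ing1-/- (10.85) than in WT (10.95). Of 5 endothelial markers only Emcn passed, and it rose by 1.52 ± 0.17 in DKO and 1.38 ± 0.17 in Ing1-/-. Of 6 skeletal muscle markers 2 passed and limma called 0. The shares of all probes given with the epithelial markers apply to each list in this paragraph. The part of other cell types in the pathway values was not tested.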

How the data were processed

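RNA of mouse embryonic fibroblasts of 4 genotypes (8 arrays, 2 each) was measured on 1-colour Illumina arrays. Per the file headers, the non-normalized values the authors deposited are a mean linear intensity for each probe with its detection p-value. GenomeStudio 2011.1 was used per the submitters' processing notes, which do not give its role here. A second deposited table holds the authors' processed intensity values, whose method is not stated, and served as an alternative.

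Intensities were corrected and quantile-normalised with limma 3.58.1 in R 4.3.3 (neqc, offset 16, with negative-control parameters taken from the detection p-values) and taken to log2, from the deposited values. The detection filter was p under 0.01 on both arrays of some genotype. The model had 1 mean for each genotype over all 8 arrays (lmFit, eBayes, residual df 4, prior df 3.79), with Benjamini-Hochberg adjustment over all 14867 probes within each contrast and a threshold of 0.05. The fit was tested on simulated data. The number of arrays limits precision. A probe below background in a group gives a bound, against the higher of its own signal and the lowest signal above background.

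Genes were named from the platform annotation, where a probe had 1 symbol. The named genes are the targeted genes, the members and called genes of the other lists. The members and lists were chosen with earlier results of these data known. No sequence is printed for genes without an entry in the RefSeq promoter table. Alternatives covered background, scaling, the authors' values, detection filters, variance prior, array weights, samples in the fit, a replicate block and each array left out. In the labels, replicates of different genotypes share only a number, and they were not treated as pairs.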

Additional observations from a re-analysis of the deposited data

How the results depend on the processing

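Member calls were few and moved with the settings. In Gadd45a-/- against WT, 1 probe was called, against 0 with an offset of 50, median scaling, the authors' values, detection p under 0.05, no detection filter, array weights or only the compared genotypes, and 2 (Ddit4 and Ephx1, 4.55% beside 2.25% of all probes) with a trended and robust prior. Leaving out 1 array gave 0 to 0. With no background correction the 1 call was Ephx1, not Cd80. In DKO against WT, 2 were called, against 5 with no background correction (11.4% beside 5.15% of all probes), 8 with a trended and robust prior (18.2% beside 5.66%), 1 with the authors' values, 1 with detection p under 0.05, and 0 with median scaling, no detection filter or only the compared genotypes. Leaving out 1 array gave 0 to 3. In DKO against Ing1-/-, 0 became 2 (Ak1 and Cdkn1a, 4.55% beside 1.88%) with the trended and robust prior. The 12 probes above WT on all knockout arrays became 2 with median scaling and 12 to 16 with 1 array left out, and the 2 below became 4 and 2 to 5. The background moved too: without WT replicate 1 the 16 above (36.4%) lay beside 20% of all probes and the 5 below (11.4%) beside 17.6%, and without WT replicate 2 the 15 above (34.1%) lay beside 19.7% and the 4 below (9.09%) beside 19%. These one-sided counts were chosen after seeing the data. No called member changed sign in any of the 18 alternatives. Fits with an array left out or with only the compared genotypes hold fewer arrays, and otherwise the cause was not tested. Calls over all probes ranged over the alternatives from 140 to 842 in DKO against WT (565 as reported), from 33 to 335 in Gadd45a-/- (198) and from 7 to 140 in Ing1-/- (62). In DKO against Gadd45a-/- they ranged from 4 to 110 (58), in DKO against Ing1-/- from 5 to 280 (165), in Gadd45a-/- against Ing1-/- from 21 to 161 (98) and for the interaction from 1 to 40 (22).

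Deviations of same-numbered arrays correlated from -0.09 to 0.28 over 6 genotype pairs, which does not settle whether replicate numbers pair the arrays. A replicate block gave 1 and 2 member calls in Gadd45a-/- and DKO against WT, as without it. Over all probes, DKO against WT gave 547 calls with the block and 565 without. Ing1-/- against WT gave 47 and 62, and the interaction 10 and 22.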
